A study of Homo sapiens with 18 samples.

Results

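The canonical WNT ligands are the WNT genes whose proteins are best known for signalling through beta-catenin. They are *WNT1*, *WNT2*, *WNT2B*, *WNT3*, *WNT3A*, *WNT8A*, *WNT8B*, *WNT10A* and *WNT10B*. These 9 genes were taken by name from a count table of 57133 genes. The rule used no measured value, but earlier results of these data were known when it was set. RNA-seq was performed on cultures of PGP1, an established human induced pluripotent stem cell (PSC) line, kept in PSC medium. The aim was to learn which genes depend on PCGF6, a subunit of a non-canonical Polycomb repressive complex 1. The authors describe the cells that lack PCGF6 as partly differentiated. Wild-type (WT) cells were compared with 2 PCGF6-KO clones, with 2 libraries for WT, 2 for clone 1 (KO_1 in the labels) and 2 for clone 2 (KO_2). Each clone is a single line that carries a deletion in the first exon of *PCGF6* on both alleles, made with Cas9 and a pair of guide RNAs, and the deletion differs between the clones. All cells grew in mTeSR1 on Matrigel, and the sources used here do not say whether WT cells went through electroporation and cloning as well. Nothing in the labels says that the libraries of a group came from separate cultures, so the p-values measure the spread between these libraries, which may be technical. In the test of PCGF6-KO against WT, the libraries of both clones enter as independent replicates, although they come from only 2 lines. The spread in that test also holds the difference between the clones.

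WNT proteins are secreted lipid-modified ligands. Canonical ligands bind a Frizzled receptor together with LRP5 or LRP6, the complex that destroys beta-catenin is then held inactive, and beta-catenin enters the nucleus and switches on genes with factors of the TCF/LEF family. In the early embryo WNT3, WNT3A and WNT8A are known for their part in forming the primitive streak and the mesoderm, and human PSCs are pushed towards mesendoderm when this pathway is activated in culture.

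PCGF6-containing complexes are known for acting at CpG-rich promoters, so the promoters of 4 members were set side by side. *WNT3*, *WNT3A* and *WNT8A* are shown because their mRNA rose in PCGF6-KO cells, and *WNT8B* because its mRNA did not pass the test although it is the closest relative of *WNT8A*. All sequences but that of *WNT8A* end at the base before the RefSeq transcription start. The sequences are from RefSeq on GRCh38.p14, run 5′ to 3′ on the strand of the gene, and have each CpG dinucleotide in capitals. They lie at chr17:46818693-46818942 on the reverse strand for *WNT3*, and on the forward strand at chr1:228006748-228006997 for *WNT3A*, chr5:138083783-138083989 for *WNT8A* and chr10:100462759-100463008 for *WNT8B*. The *WNT8A* sequence is shorter and stops before the RefSeq start, because a GENCODE exon of the gene lies in the rest of its window. The *WNT3* promoter lies inside the gene as GENCODE release 44 draws it, because that annotation holds transcripts that start further upstream.
WNT3: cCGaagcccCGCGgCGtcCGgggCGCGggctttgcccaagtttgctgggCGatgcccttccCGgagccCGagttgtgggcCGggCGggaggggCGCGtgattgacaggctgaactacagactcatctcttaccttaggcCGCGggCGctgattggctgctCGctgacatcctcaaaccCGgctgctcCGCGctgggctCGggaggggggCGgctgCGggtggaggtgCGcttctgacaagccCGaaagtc
WNT3A: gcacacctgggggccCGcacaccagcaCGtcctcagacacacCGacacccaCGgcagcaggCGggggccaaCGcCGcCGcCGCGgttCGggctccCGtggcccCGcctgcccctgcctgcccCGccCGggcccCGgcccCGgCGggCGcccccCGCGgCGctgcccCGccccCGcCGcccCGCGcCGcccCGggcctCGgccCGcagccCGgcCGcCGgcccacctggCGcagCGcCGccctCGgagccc
WNT8A: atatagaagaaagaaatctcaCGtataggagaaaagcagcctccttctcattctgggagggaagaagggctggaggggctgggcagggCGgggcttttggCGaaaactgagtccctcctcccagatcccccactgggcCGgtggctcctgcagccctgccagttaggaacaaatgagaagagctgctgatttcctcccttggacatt
WNT8B: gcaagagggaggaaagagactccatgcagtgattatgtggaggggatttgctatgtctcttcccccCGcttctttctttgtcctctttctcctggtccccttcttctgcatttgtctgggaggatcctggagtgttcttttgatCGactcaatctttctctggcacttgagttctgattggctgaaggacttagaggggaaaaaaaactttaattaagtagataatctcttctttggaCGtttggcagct

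Over the whole RefSeq window, from 250 bases before to 50 bases after the start, the *WNT3A* promoter held 49 CpG dinucleotides, more than 98.4% of all 35116 promoters of this length. The *WNT3* window held 28, more than 73.8% of promoters. The windows of *WNT8A* and *WNT8B* held 4 each, more than 24.5% of promoters and below the median of 14. A CpG-rich and a CpG-poor window both occurred among the ligands that rose. The WNT8 genes had the same CpG count, and *WNT8A* was called while *WNT8B* was not. Whether CpG content bears on these changes was not tested. Among the members with few or no reads in any library, the windows held 34 CpG for *WNT1*, 43 for *WNT2* and 30 for *WNT10A*. *WNT2B* has a pair of RefSeq windows with 18 and 43 CpG. Of the 9 members, 8 were matched in the promoter table, and *WNT10B* was not. The E-box CACGTG, which MYC and MAX bind and which occurs in 7.26% of all promoters, was found in no member window on either strand. The TCF/LEF core ATCAAAG, which occurs in 2.62% of promoters, was not found in these windows either. The E2F6-type motif GCGGGAA, which occurs in 6.55% of promoters, was found in the *WNT1* window alone, 6 bases after the start. No 2 of these motifs overlap, and a match or its absence describes the letters of this window only.

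Reads assigned to genes summed to between 15877396 and 18918609 per library. *PCGF6*, the targeted gene, had 268 and 300 counts in the WT libraries, 99 and 103 in those of clone 1, and 187 and 159 in those of clone 2, so all 4 PCGF6-KO libraries lay below both WT libraries. On the log2 scale *PCGF6* fell by 1.67 (SE 0.14) in clone 1 and by 0.77 (SE 0.13) in clone 2, with adjusted p values of 1.0e-10 and 1.2e-05. The difference between the clones in *PCGF6* mRNA was 0.90 (SE 0.15, adjusted p = 5.4e-05), higher in clone 2. Levels are given in TPM, scaled to library depth and to the deposited gene lengths, so that genes can be compared. Of 8 pluripotency markers, 3 fell and 0 rose in PCGF6-KO cells, where 8.70% of all genes tested were lower by the threshold given below. The 3 were *ZFP42*, *PRDM14* and *SOX2*. *ZFP42* went from 304 and 329 counts in WT to 1 or 2 in each PCGF6-KO library. Mean levels in WT, clone 1 and clone 2 were 260, 109 and 65.3 TPM for *PRDM14* and 579, 428 and 261 TPM for *SOX2*. *POU5F1* (2297, 2345 and 2074 TPM) and *NANOG* (108, 145 and 127 TPM), named after their values were seen, were not among the 3. The 8 summed to 6639 to 6911 TPM in WT, 5820 to 5977 in clone 1 and 5218 to 5335 in clone 2. *POU5F1* was the largest part of this sum.

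In WT cells, *WNT3* was the main canonical ligand. Its level was 9.69 ± 1.07 TPM (SD, n = 2), against 1.15 ± 0.378 TPM for *WNT8B*, 0.784 ± 0.034 TPM for *WNT2B* and 0.324 ± 0.096 TPM for *WNT8A*. These 4 levels did not overlap between neighbours in the order in the 2 WT libraries. The other members, *WNT1*, *WNT2*, *WNT3A*, *WNT10A* and *WNT10B*, had 0 counts in both WT libraries. A count of 0 allows up to 3 counts in a library, or 0.182 CPM (counts scaled to library depth) on average over the 2 WT libraries, and this limit covers counting error only. *WNT3* alone made up 81.2% ± 1.31 (SD, n = 2) of the summed TPM of the canonical ligands in WT.

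**Figure D1:**
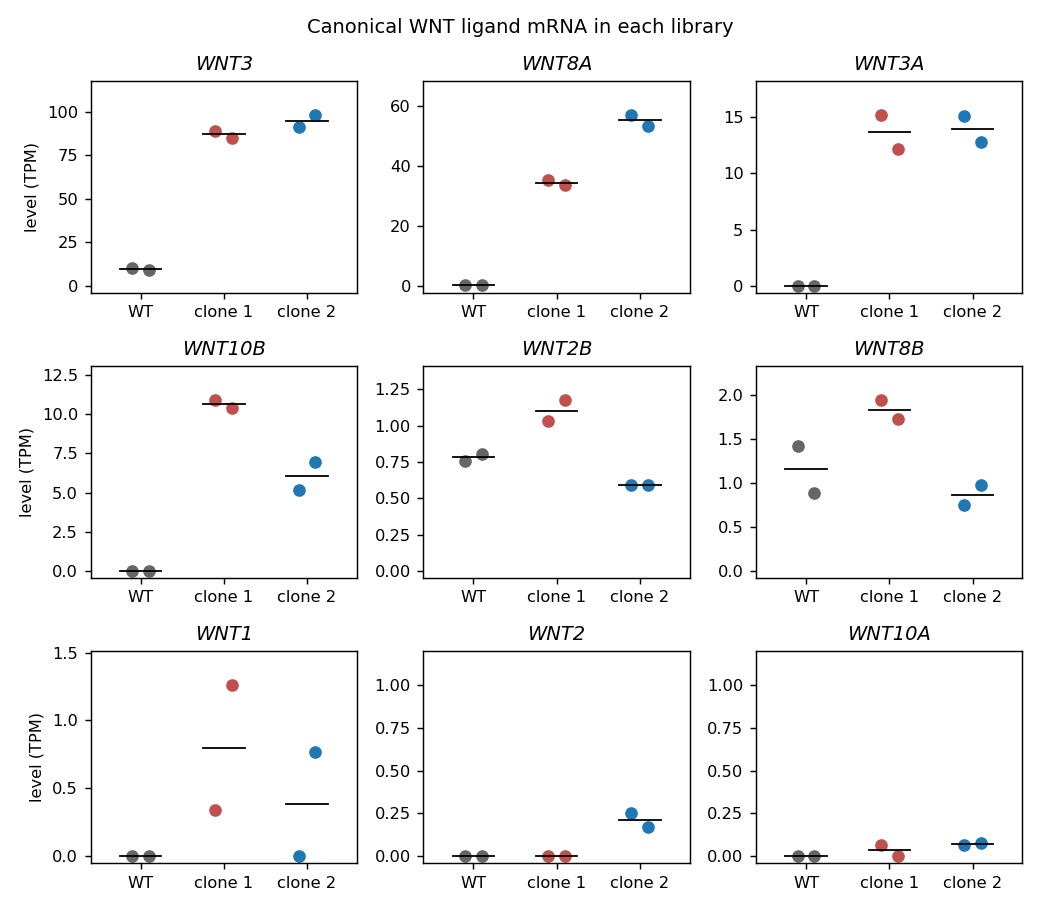
Level of each canonical WNT ligand in TPM (y axis, linear, its own range in each panel) in the 2 WT, 2 clone 1 and 2 clone 2 libraries, with a point for each library and a line at the group mean. WNT3, WNT8A, WNT3A and WNT10B have all 4 PCGF6-KO libraries above both WT libraries, while WNT2B and WNT8B do not, and WNT1, WNT2 and WNT10A stay under 1.3 TPM.

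In PCGF6-KO cells, *WNT3*, *WNT8A*, *WNT3A* and *WNT10B* rose, and their levels kept one order in both clones. In clone 1 the levels were 87.3 ± 2.86 TPM for *WNT3*, 34.3 ± 1.15 TPM for *WNT8A*, 13.7 ± 2.15 TPM for *WNT3A* and 10.6 ± 0.339 TPM for *WNT10B* (SD, n = 2 each). In clone 2 they were 94.9 ± 4.63 TPM for *WNT3*, 55.0 ± 2.48 TPM for *WNT8A*, 14.0 ± 1.63 TPM for *WNT3A* and 6.05 ± 1.26 TPM for *WNT10B*. No 2 of these genes that neighbour each other in the order overlapped within a clone. Below them, in clone 1, came *WNT8B* at 1.83 ± 0.153, *WNT2B* at 1.10 ± 0.103 and *WNT1* at 0.797 ± 0.651 TPM, and the last 2 could not be ordered because their libraries overlapped. In clone 2 *WNT8B* was at 0.861 ± 0.159 TPM, *WNT2B* at 0.594 ± 0.000152 TPM, *WNT1* at 0.382 ± 0.540 TPM and *WNT2* at 0.211 ± 0.0564 TPM, and *WNT1* overlapped both of its neighbours.

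Each gene was tested across the 17672 genes that passed edgeR's filter on low counts, with edgeR's quasi-likelihood test and Benjamini-Hochberg adjustment over all of them, and was called where the adjusted p was under 0.05 with a log2 fold change of more than 0.6 in size. In PCGF6-KO against WT, 23.6% of all these genes were called, 14.9% as higher and 8.70% as lower. Of the 9 members, 4 were called higher and 0 lower, 2 were tested without a call (*WNT2B* and *WNT8B*), and 3 did not pass the filter (*WNT1*, *WNT2* and *WNT10A*). The 4 that were called are also those whose PCGF6-KO libraries all lay above both WT libraries, which held for 29.5% of all genes tested. None of the 6 tested lay below both WT libraries, which held for 27.6% of genes. The same 4 were called higher in each clone alone, with 0 lower, where 24.8% of all genes were called in clone 1 (16.0% higher, 8.80% lower) and 29.4% in clone 2 (16.9% higher, 12.5% lower). *WNT3A*, *WNT10B* and *WNT8A* had 0 to 3 counts per WT library and passed the filter through their PCGF6-KO libraries alone, so that they had to differ, whereas *WNT3* and *WNT2B* reached the minimum of the filter in both WT libraries. *WNT8B* did not reach it in both WT libraries either. In these bulk libraries, a change in the number of cells that express a gene and a change in the RNA per cell cannot be told apart.

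*WNT3*, on chromosome 17 of GRCh38 (46762506 to 46833154, reverse strand), had 166 and 145 counts in the WT libraries, 1705 and 1527 in those of clone 1, and 1757 and 1655 in those of clone 2. It was already expressed in WT and was several-fold higher in every PCGF6-KO library. The log2 fold change was 3.30 (SE 0.12, adjusted p = 3.0e-07), and the ratio of counts per library size was 9.85 with an exact counting interval from 8.79 to 11.1. Each clone alone gave 3.20 (SE 0.10) and 3.40 (SE 0.10) against the same WT libraries.

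*WNT8A*, a ligand of the early mesoderm on chromosome 5 from 138083990 to 138092365 on the forward strand, had 3 and 2 counts in the WT libraries, 323 and 289 in those of clone 1, and 525 and 433 in those of clone 2. It was near 0 in WT and differed between the clones, whose libraries did not overlap. The log2 fold change was 7.12 (SE 0.51). The adjusted p of 1.0e-05 from the quasi-likelihood test is no support for a change. *WNT8A* passed the filter through its PCGF6-KO libraries alone. With 5 WT counts in all, the ratio of 145 had a wide counting interval, from 61.9 to 447. Against the shared WT libraries the log2 fold change was 6.69 (SE 0.27) in clone 1 and 7.46 (SE 0.24) in clone 2.

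*WNT3A*, the closest relative of *WNT3*, lies on chromosome 1 from 228006998 to 228061271 on the forward strand. It had 0 counts in both WT libraries, 196 and 147 in clone 1, and 196 and 146 in clone 2, so the clones had nearly the same counts. Its mean CPM was at least 52.5-fold higher in PCGF6-KO cells than the limit of 3 counts per WT library. The adjusted p of 3.8e-06 from the quasi-likelihood test is no support for a change, since *WNT3A* passed the filter through its PCGF6-KO libraries alone. The bound was at least 50.4-fold higher in clone 1 and at least 54.7-fold higher in clone 2.

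*WNT10B*, a ligand known for bone and fat cell fate, lies on chromosome 12 from 48965340 to 48971735 on the reverse strand. It had 0 counts in both WT libraries, 126 and 113 in clone 1, and 60 and 71 in clone 2, and the clones did not overlap. Its mean CPM was at least 28.2-fold higher in PCGF6-KO cells, at least 35.2-fold higher in clone 1 and at least 21.2-fold higher in clone 2. The adjusted p of 9.4e-05 for PCGF6-KO against WT, from the quasi-likelihood test, is no support for a change. *WNT10B* too passed the filter through its PCGF6-KO libraries alone.

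*WNT2B* and *WNT8B* were detected in every library and were not called against WT. *WNT8B*, on chromosome 10 from 100463009 to 100483744 on the forward strand and known from the developing forebrain, had 11 and 7 counts in the WT libraries, 18 and 15 in those of clone 1, and 7 and 8 in those of clone 2. Clone 1 lay above WT and clone 2 reached into the WT range. The log2 fold change of the 4 PCGF6-KO libraries was 0.29 (SE 0.48, adjusted p = 0.681), and the ratio of 1.23 had a counting interval from 0.703 to 2.25, so that a change of the size seen in *WNT3* lay outside it. *WNT2B*, on chromosome 1 from 112466541 to 112530165 on the forward strand, had 35 and 38 counts in the WT libraries, 57 and 61 in those of clone 1, and 33 and 29 in those of clone 2. Clone 1 was above WT and clone 2 below it, so the mean over both clones was close to WT, with a log2 fold change of 0.17 (SE 0.32, adjusted p = 0.701). Neither clone was called on its own, with 0.51 (SE 0.25, adjusted p = 0.0957) in clone 1 and −0.29 (SE 0.28, adjusted p = 0.411) in clone 2. Exons of *WNT2B* overlap those of *ST7L* on the opposite strand, and the strand setting of the counting is not given in the sources used here, so that reads of the 2 genes may not be separated. *ST7L* had 159 and 171 counts in the WT libraries, 161 and 175 in those of clone 1, and 143 and 121 in those of clone 2.

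The remaining ligands stayed at or near 0. *WNT1*, on chromosome 12 from 48978322 to 48982620 and known for patterning the midbrain, had 0 counts in both WT libraries, 2 and 7 in clone 1, and 0 and 4 in clone 2. *WNT2*, on chromosome 7 from 117275451 to 117323152, had 0 counts in the WT and clone 1 libraries and 5 and 3 in clone 2, and its exons overlap those of *CFTR* on the opposite strand. *WNT10A*, on chromosome 2 from 218880852 to 218899581 and known from teeth and skin, had 0 counts in both WT libraries, 1 and 0 in those of clone 1, and 1 and 1 in those of clone 2. These 3 genes did not pass the filter, so a difference in them was neither shown nor excluded. Under another filter, of 10 counts summed over the libraries, *WNT1* was called in clone 1 against WT.

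The summed level of the canonical ligands was 10.9 to 13.0 TPM in WT, 145 to 154 TPM in clone 1 and 170 to 174 TPM in clone 2. *WNT3* supplied most of it in every library, but its share was 58.3% ± 0.406 in clone 1 and 55.1% ± 1.91 in clone 2, against 81.2% in WT. *WNT8A* made up 2.68% ± 0.466 in WT, 22.9% ± 0.144 in clone 1 and 32.0% ± 1.89 in clone 2, and became the second ligand by level (SD, n = 2 each). *WNT3A* took 9.10% ± 1.08 and 8.12% ± 1.06 in clones 1 and 2, and *WNT10B* 7.11% ± 0.0564 and 3.51% ± 0.684. *WNT8B*, the second ligand in WT with 9.52% ± 1.96, made up 1.22% ± 0.0537 and 0.50% ± 0.0853 in the clones, although its own level was not called changed.

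The clones differed from each other in 3 of the 6 ligands tested, 1 higher and 2 lower in clone 2, where 7.87% of all genes tested were called, 3.73% higher and 4.14% lower. *WNT8A* was higher in clone 2 by 0.77 on the log2 scale (SE 0.11, adjusted p = 6.0e-06). *WNT10B* was lower in clone 2 by −0.74 (SE 0.20, adjusted p = 0.0108), and *WNT2B* by −0.80 (SE 0.26, adjusted p = 0.0276). The level of *WNT3* relative to *WNT8A* was 2.54 and 2.55 in the 2 clone 1 libraries and 1.61 and 1.84 in clone 2. *WNT3* differed by 0.21 (SE 0.07, adjusted p = 0.0481), which is under the fold threshold. By the adjusted p alone, 19.5% of all genes differed between the clones. *WNT3A* differed by 0.12 (SE 0.16, adjusted p = 0.664) and *WNT8B* by −1.0 (SE 0.49, adjusted p = 0.165), and neither was called. The calls of *WNT10B* and *WNT2B* were the less stable ones: *WNT10B* was no longer called without the first clone 1 library (adjusted p = 0.0648) or the first clone 2 library (adjusted p = 0.169). *WNT2B* was no longer called without any one of the 4 PCGF6-KO libraries, with adjusted p values from 0.0527 to 0.123.

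**Figure D2:**
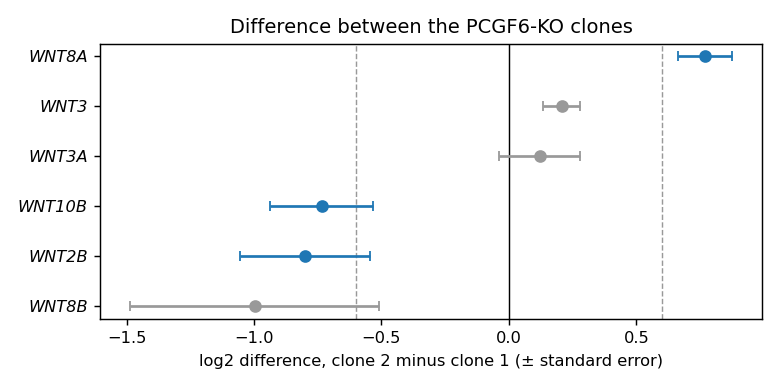
Difference between the clones for the 6 canonical ligands that were tested, as log2 of clone 2 minus clone 1 (x axis), with bars of 1 standard error, a line at 0 and dashed lines at the fold threshold of 0.6. Blue points were called (WNT8A at 0.77, WNT10B at −0.74 and WNT2B at −0.80) and grey points were not.

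Several WNT genes lie in tandem with another WNT gene, a layout known from other animals too, and the neighbours of the members were followed. *WNT9A* lies 59.065 kb from *WNT3A* on the opposite strand, with 0 coding genes between them, and had 14 and 12 counts in the WT libraries, 56 and 63 in those of clone 1, and 83 and 59 in those of clone 2. It rose by a log2 fold change of 2.20 (SE 0.29, adjusted p = 0.00043). *WNT9B* lies 46 bases from *WNT3* on the opposite strand, measured between the outermost GENCODE bounds of the genes. The RefSeq *WNT3* promoter shown above lies further away, at 46818693 to 46818942, whereas *WNT9B* starts at 46833201. Which *WNT3* start was used in these cells was not tested. *WNT9B* had 0 and 1 counts in the WT libraries, 5 and 11 in those of clone 1, and 8 and 9 in those of clone 2. *WNT6* lies 6618 bases from *WNT10A* on the same strand and had 0 counts in both WT libraries, 5 and 4 in those of clone 1, and 12 and 8 in those of clone 2. Both had fewer counts than the filter asks for and were not tested. *WNT1* lies 6586 bases from *WNT10B* on the opposite strand, and had at most 7 counts in the PCGF6-KO libraries, where *WNT10B* had at least 60. Neighbours thus reached very different levels in the same libraries.

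Of the 10 other WNT genes, among them ligands best known for signalling without beta-catenin such as *WNT5A* and *WNT11*, 5 were tested, 4 were called higher and 0 lower, with a median log2 fold change of 2.88 against 0.00 over all genes tested. The remaining gene tested was *WNT16* (1.0, adjusted p = 0.239). Over all genes tested, 14.9% were called higher and 8.70% lower. Of the 5, only *WNT5A* and *WNT9A* reached the minimum of the filter in both WT libraries. Their summed level was 4.70 to 5.14 TPM in WT, 111 to 113 TPM in clone 1 and 161 to 164 TPM in clone 2. *WNT5B* rose by 8.16 (SE 0.35), *WNT5A* by 4.26 (SE 0.39) and *WNT11* by 2.88 (SE 0.51) on the log2 scale, and *WNT9A* is the remaining one. *WNT5B* had 2 and 7 counts in the WT libraries, 1350 and 1169 in those of clone 1, and 1667 and 1498 in those of clone 2. *WNT5A* had 66 and 82 counts in the WT libraries, 1056 and 1185 in those of clone 1, and 2114 and 1738 in those of clone 2, and was called higher in clone 2 than in clone 1 by 0.90 (SE 0.08, adjusted p = 7.8e-09).

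Of 6 genes for the lipidation and secretion of WNT proteins, 1 rose and 1 fell, with a median of 0.03, and all 6 reached the minimum of the filter in WT. Over all genes tested, 14.9% were called higher and 8.70% lower. *WLS*, the carrier that escorts WNT proteins to the cell surface, rose by 6.51 (SE 0.12, adjusted p = 1.1e-08), from 52 and 37 counts in WT to between 3954 and 4806 in the 4 PCGF6-KO libraries. *PORCN*, the enzyme that attaches the lipid, changed by −0.76 (SE 0.20, adjusted p = 0.0162) and was called in clone 2 but not in clone 1 on its own, from 203 and 215 counts in WT to 162 and 162 in clone 1 and 131 and 83 in clone 2. The VPS26A, VPS29, VPS35 and SNX3 genes of the retromer, which recycles WLS, lay between −0.14 and 0.13 and were not called. All 3 enzymes that inactivate secreted WNT proteins rose, *NOTUM*, which did not reach the minimum of the filter in WT, by 6.25 (SE 0.51), *TRABD2A* by 1.07 (SE 0.13) and *TRABD2B* by 0.85 (SE 0.15).

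Of 12 receptors and co-receptors, 3 rose and 2 fell, with a median of 0.20, where 14.9% of all genes tested were called higher and 8.70% lower. *FZD10* rose by 4.49 (SE 0.39) and *FZD1* by 2.23 (SE 0.19), whereas *FZD5*, the most changed of those that fell, went from 141 ± 13.7 TPM in WT to 42.2 ± 1.23 in clone 1 and 48.8 ± 3.17 in clone 2 (SD, n = 2 each), with a log2 fold change of −1.55 (SE 0.11). *FZD9* (1.06) and *FZD7* (−0.67), named after their values were seen, were the other 2 called, but not in both clones. *FZD9* was called in clone 1 (1.36) and not in clone 2 (0.68, adjusted p = 0.168), and *FZD7* in clone 2 (−1.11) and not in clone 1 (−0.34, under the fold threshold). Of the 12, *FZD10* alone did not reach the minimum of the filter in both WT libraries. In the group of R-spondins, their LGR receptors and the ligases RNF43 and ZNRF3, which control how much receptor stays on the cell surface, 9 genes were listed, 8 tested, 5 called higher and 1 lower, with a median of 2.41. Of the 8, *LGR5*, *RSPO2* and *RSPO3* did not reach the minimum of the filter in WT, and the other 5 had a median of 0.13. *RSPO3*, a secreted enhancer of WNT signalling, had 1 and 0 counts in the WT libraries, 209 and 195 in those of clone 1, and 625 and 524 in those of clone 2, a ratio of 716 with a counting interval from 128 to 28313. *LGR5* had 1 and 0 counts in the WT libraries, 32 and 37 in those of clone 1, and 95 and 71 in those of clone 2, a ratio of 108 with an interval from 19.3 to 4300. *RNF43* rose by 4.72 (SE 0.18). *RSPO2* (3.95), *ZNRF3* (0.88) and *LGR6* (−0.77), named after their values were seen, were the other 3 called, and *LGR6* was not called in clone 1 on its own (−0.59, adjusted p = 0.0701).

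Secreted inhibitors changed in both directions. Of 12 listed, 11 were tested, 5 rose and 2 fell, with a median of 0.65, where 14.9% of all genes tested were called higher and 8.70% lower. Of the 5 that rose, *DKK1*, *DKK2*, *DKK4* and *SFRP4* did not reach the minimum of the filter in WT, and the 7 genes that did had a median of 0.10. *DKK1*, which blocks the LRP co-receptors, rose by 7.92 (SE 0.38), *DKK2* rose by 5.96 (SE 0.67), and *DKK4* was at least 6.85-fold higher than the limit of 3 counts per WT library. *SFRP1*, which binds WNT proteins, was at 642 ± 57.3 TPM in WT, 16.5 ± 2.48 TPM in clone 1 and 15.3 ± 1.04 TPM in clone 2 (SD, n = 2 each), a log2 fold change of −5.27 (SE 0.09). *SFRP2* (−0.66, not called in clone 1 on its own), *SFRP4* (4.49) and *CER1* (3.40) were also called, and these 3 and *SFRP1* were named after their values were seen.

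Of 13 genes of the beta-catenin machinery and its nuclear partners, 2 rose, 1 fell and 10 were not called, with a median of 0.02. This share is close to the 23.6% called over all genes tested. The 3 of the 13 that were called are all members of the TCF/LEF family. *LEF1* rose by 6.54 (SE 0.24) and *TCF7* by 1.92 (SE 0.10), and *TCF7L1*, known mainly as a repressor in PSCs, changed by −1.89 (SE 0.22), from 502 ± 4.45 TPM in WT to 167 ± 6.03 in clone 1 and 92.0 ± 0.573 in clone 2. All 15 listed target genes of beta-catenin signalling rose, with a median of 4.72, where 14.9% of all genes tested were called higher. Of these, 6 (*SP5*, *TBXT*, *CDX1*, *DKK1*, *NOTUM* and *LGR5*) did not reach the minimum of the filter in both WT libraries and passed it through their PCGF6-KO libraries, so that they had to be higher. The other 9 rose too, with a median of 3.66. *SP5* rose by 9.68 (SE 0.21), *TBXT* by 9.31 (SE 0.57), and *CDX1* was at least 77.6-fold higher than the limit of 3 counts per WT library. *AXIN2*, the target used most often as a readout and named after its values were seen, rose by 2.64 (SE 0.09), from 20.7 ± 1.29 TPM to 120 ± 2.58 in clone 1 and 125 ± 0.637 in clone 2. The lists share genes, since *LEF1*, *TCF7*, *RNF43*, *ZNRF3*, *NOTUM*, *LGR5* and *DKK1* each stand in 2 of them. The medians of the inhibitor and target lists were the same with *DKK4* and *CDX1* placed at their bounds.

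**Figure D3:**
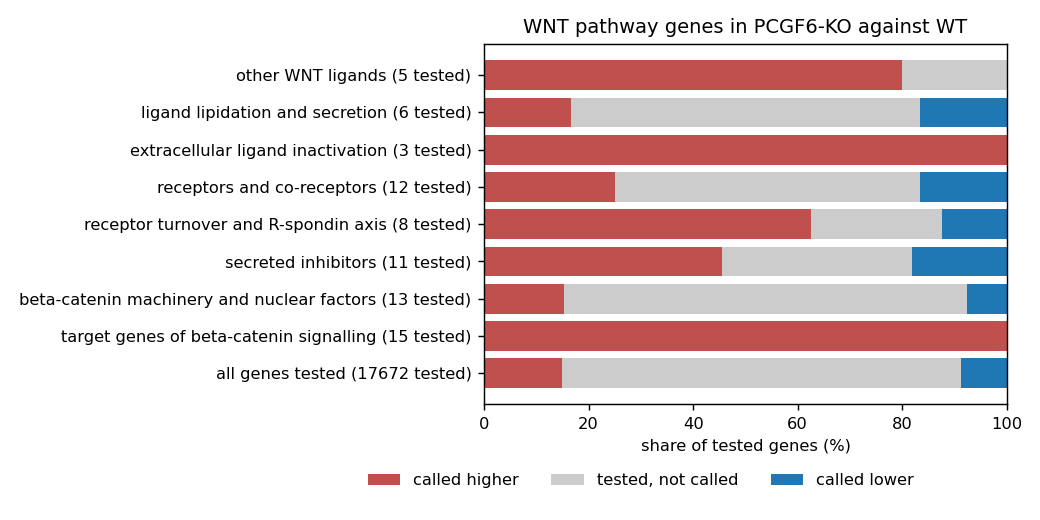
Share of tested genes called higher (red), not called (grey) or called lower (blue) in PCGF6-KO against WT (x axis, percent), for each list of WNT pathway genes with its number of genes tested, above the same for all 17672 genes. All 15 target genes and all 3 inactivating enzymes were called higher, while most machinery, receptor and secretion genes were not called.

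Markers of other cell types were followed too, where 14.9% of all genes tested were called higher in PCGF6-KO against WT. All 7 mesendoderm and primitive streak markers that were tested rose, although 5 of them passed the filter through their PCGF6-KO libraries and had to be higher. *MIXL1* and *TBX6* reached its minimum in WT. The summed level of the list was 11.7 to 12.7 TPM in WT, 1172 to 1184 TPM in clone 1 and 1384 to 1412 TPM in clone 2. *TBXT* and *CDX1* stand both in this list and among the target genes. *MESP1* had 0 counts in WT and at most 13 elsewhere and was not tested. Of 4 definitive endoderm markers 3 rose, of which *CXCR4* alone reached that minimum in WT, and their sum was 3.14 to 3.72 TPM in WT, 25.8 to 27.7 TPM in clone 1 and 39.6 to 42.2 TPM in clone 2. Of 6 amnion and trophoblast markers 4 were tested and 3 rose, with sums of 8.28 to 9.17, 37.7 to 39.1 and 54.0 to 57.0 TPM in WT, clone 1 and clone 2, while *CGA* and *VTCN1* stayed at 9 counts or fewer. Of the 3 that rose, *GATA3* alone reached that minimum in WT, so that *ISL1* and *TFAP2A* had to be higher. Of 4 neuroectoderm markers 3 were tested and 2 rose, but nearly all of their summed level was *NES*, which is not particular to neuroectoderm, with 221 to 259 TPM in WT and 462 to 527 TPM in the PCGF6-KO libraries. *LHX2*, the other one that rose, did not reach the minimum of the filter in WT and had at most 2.89 TPM. *PAX6* was at or under 0.207 TPM and was not called, and *SOX1* had at most 1 count in any library. All 5 fibroblast markers rose, but *DCN* and *LUM* had 0 counts in WT and passed the filter through their PCGF6-KO libraries. The summed level of this list was 99.2 to 102 TPM in WT and 540 to 562 TPM in the PCGF6-KO libraries. The summed markers of mesendoderm, endoderm and amnion were higher in clone 2 than in clone 1, as was *WNT8A*, whereas *WNT10B* and *WNT2B* were lower in clone 2. The neuroectoderm sum was 497 ± 46.5 TPM in clone 1 and 495 ± 43.9 TPM in clone 2. For the fibroblast list it was 556 ± 2.41 and 551 ± 15.6 TPM (SD, n = 2 each). Of the 7 mesendoderm markers tested, 4 were called higher in clone 2 and 0 lower, where 3.73% of all genes were called higher. *EOMES*, named after its values were seen, was at 165 ± 2.84 TPM in clone 1 and 108 ± 11.3 TPM in clone 2 (SD, n = 2 each). The part of such cells in the ligand values was not tested.

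The genes most like each ligand that rose were found by Pearson's r of log2(CPM + 0.5) over the 6 libraries, among 17671 other genes. They were *TFAP2A*, *ZNF808* and *HPGD* for *WNT3*, *VAMP8*, *FSCN1* and *MCAM* for *WNT3A*, *AC131094.1*, *LINC01356* and *CDX2* for *WNT8A*, and *TRAF5*, *LINC01124* and *FHL2* for *WNT10B*. The libraries fall into WT and PCGF6-KO groups, so that any gene that differs strongly between these gives a high r. An r over 0.99 was reached by 561 genes for *WNT3*, 468 for *WNT3A*, 638 for *WNT8A* and 128 for *WNT10B*, and these values describe the 6 libraries only.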

How the data were processed

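The authors trimmed the RNA-seq reads with Trim Galore (0.6.2), aligned them to GRCh38 with HISAT2 (2.1.0), counted them per gene with featureCounts and deposited the raw counts with gene lengths. Their strand setting, treatment of multi-mapped reads and gene annotation release are not given in the sources used here. The 12 ChIP libraries were not analysed here. The members, the gene lists and the motifs were chosen with earlier results of these data known, and no p is given for a list.

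From the counts, low genes were removed with filterByExpr (edgeR 4.0.16, R 4.3.3, limma 3.58.1), which left 17672 genes, and libraries were scaled by TMM. PCGF6-KO libraries (4) were compared with WT (2) by edgeR's quasi-likelihood test, and the 3 groups were fitted together for each clone against WT and for clone 2 against clone 1. The comparisons with WT share the WT libraries. The threshold for a call was 0.05 for the p adjusted by Benjamini-Hochberg and 0.6 for the size of the log2 fold change. CPM used TMM-scaled library sizes, and TPM the deposited lengths. Against 0 counts in WT, folds are bounds against 3 counts per library, and with counts in WT, ratios have exact conditional Poisson intervals (95%). Intervals and bounds cover counting error only. Genes other than members were named as the 3 of each list with the largest absolute log2 fold change among those called, the tandem neighbours, and those said to be named after their values were seen.

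Alternatives were RLE scaling, DESeq2 (1.42.0), other filters, the adjusted p alone, the replicate number as a block, only the groups compared, the mean of the clones and leaving out each library, and upper-quartile scaling was added after seeing the data. On simulated counts, the test of PCGF6-KO against WT called 98 of 100 genes changed by 1 on the log2 scale and 100 of 100 changed by 2, with 11 false calls among 17400 genes run. The comparison of the clones called 93 of 100 and 100 of 100, with 3 false calls among 17427. The changed genes were drawn from those with higher mean counts, all genes had the same spread, and no other difference between the clones was simulated. These rates therefore do not apply to genes with few counts, such as *WNT8B*, or to genes whose clones moved apart, such as *WNT2B*. Replicates differed by more than sampling noise, with a chi-square per degree of freedom of 2.40 for WT, 4.50 for clone 1 and 3.2 for clone 2. Gene positions are from GENCODE release 44. Python 3.11.15 with pandas 2.3.3, numpy 2.4.6, scipy 1.17.1 and matplotlib 3.10.9 was used for the summaries.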

Additional observations from a re-analysis of the deposited data

Results flagged for a closer look

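Of the 6 ligands tested, 4 differed between the clones by the test of the difference itself at an adjusted p under 0.05 (quasi-likelihood test of edgeR, adjusted by Benjamini-Hochberg). On the log2 scale clone 2 minus clone 1 was 0.771 for *WNT8A*, 0.207 for *WNT3*, −0.735 for *WNT10B* and −0.801 for *WNT2B*, so that 2 ligands were higher and 2 lower in clone 2. At this threshold 19.5% of all genes tested differed. Over the alternatives the adjusted p reached 0.284 for *WNT3*, 0.195 for *WNT10B* and 0.246 for *WNT2B*, and 0.000296 for *WNT8A*. *WNT10A* stood out for 1 library, since clone 1 replicate 2 had 0 counts while the other 3 PCGF6-KO libraries had 1 count each, and the gap divided by the range of the 4 libraries was 0.839. For continuous values chance gives such a gap in about 1 in 20 groups, a rate that does not hold for counts of 0 and 1, and here the gap rests on single reads.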

How the results depend on the processing

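The number of members called was 4 in PCGF6-KO against WT under every alternative run, and the direction and call of *WNT3*, *WNT8A*, *WNT3A* and *WNT10B* against WT were the same under each of them. Over all results, 53 of 56 values of the number of members called stayed within 1.5 times the main count and 3 did not. These 3 were all in clone 2 against clone 1, where the main count of 3 became 1 with DESeq2 and ranged from 1 to 3 when 1 library was left out (1 without the first clone 1 library and 1 without the first clone 2 library). The member left was *WNT8A*. With DESeq2 the adjusted p was 0.195 for *WNT10B* and 0.246 for *WNT2B*, and the cause was not tested. Over alternatives, the adjusted p of the clone difference ranged from 0.00331 to 0.195 for *WNT10B* and from 0.0208 to 0.246 for *WNT2B*. With the adjusted p alone as threshold, *WNT3* was called as well. Over all genes, that threshold called 6556 in place of 4167 in PCGF6-KO against WT, 8002 in place of 4379 for clone 1, 8904 in place of 5197 for clone 2 and 3442 in place of 1390 between the clones, where DESeq2 called 810. *WNT1* was called in clone 1 against WT (adjusted p = 0.0373) under a filter of 10 counts summed over libraries, which made 5 members.

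Values near 0 changed sign in 4 cases, all when 1 library was left out and none of them called. They were *WNT8B* in PCGF6-KO against WT (−0.015 without WT replicate 2, with a range of −0.015 to 0.658 over the libraries left out) and in clone 2 against WT (0.064 without WT replicate 1, with a range of −0.617 to 0.064), and *WNT3A* in clone 2 against clone 1 (−0.044 without clone 1 replicate 2 and −0.014 without clone 2 replicate 1, with a range of −0.044 to 0.307). In the fit with a replicate block, the members called were 4 in each comparison with WT and 3 in clone 2 against clone 1, and over all genes 3876 were called in PCGF6-KO against WT. Same-numbered libraries deviated together only weakly over 13420 genes (r of 0.07 for WT with clone 1, 0.07 for WT with clone 2 and 0.18 for the clones), so the number was not taken as a pairing. *WNT8B* was not tested in clone 2 against WT when only these 2 groups were fitted, because the filter removed it. The median log2 fold change of all genes moved from 0.00 to 0.10 with DESeq2 or with no filter and to −0.03 with upper-quartile scaling, and depth limits *WNT1*, *WNT2* and *WNT10A*, which had at most 7 counts in any library.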
